A study of Mus musculus with 10 samples.

Results

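Genes that cells use to meet stress of the endoplasmic reticulum (ER) or a shortage of amino acids were followed in livers of mice given MI-883. They were chosen by name, as known genes of the unfolded protein response and the integrated stress response, with earlier results of these data known. Shares of them that passed are therefore set beside the background as a description only. They are *Hspa5*, *Dnajb9*, *Herpud1*, *Xbp1*, *Atf4*, *Ddit3*, *Atf3*, *Trib3*, *Chac1* and *Asns*, and make up 10 of 16647 genes in the table of read counts. All 10 passed the filter of at least 60 counts over the 10 livers, as did 13219 genes in all.

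Livers came from male humanized PXR-CAR-CYP3A4/3A7 mice (from Taconic), which carry the human nuclear receptors PXR and CAR, sensors of drugs and other foreign compounds, with the human *CYP3A4* and *CYP3A7* genes. The mice were 10 to 15 weeks old when they were placed on a high-fat diet (HFD), and after 8 weeks on it they received either MI-883, described by the study as a CAR agonist and PXR antagonist, at 5 mg/kg by mouth 3 times per week for 4 weeks, or the vehicle of DMSO, PEG300 and corn oil alone. Both groups thus shared the humanized genotype, the HFD and the gavage, and each held 5 livers, each from another animal. No group without HFD and no second compound was analysed here, so that levels of these genes are compared only between treated and vehicle livers on HFD.

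The unfolded protein response starts from the ER membrane proteins IRE1, PERK and ATF6, which sense unfolded protein in the ER. IRE1 splices the *Xbp1* mRNA, ATF6 is cut to an active transcription factor, and PERK phosphorylates the translation factor eIF2alpha. Phosphorylation of eIF2alpha, which other kinases also bring about when amino acids or heme are short, is the core of the integrated stress response. It lowers translation in general but raises that of *Atf4*, whose protein switches on genes of amino acid supply and, under lasting stress, of cell death. Counts per gene show the amount of mRNA only. Splicing of *Xbp1*, translation of *Atf4* and phosphorylation of eIF2alpha were not measured.

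Between 23513665 and 36221514 reads per liver were counted on genes. The median total was 31734138 in vehicle and lower, at 24581671, in treated livers, with overlapping ranges (exact two-sided permutation test, P = 0.111). With 5 livers per group this test cannot show that depth was equal. Levels are given as CPM, that is, reads of a gene relative to all counted reads of its liver, after TMM correction for RNA composition. The 5 hepatocyte markers *Alb*, *Ttr*, *Hnf4a*, *Cps1* and *Serpina1a* summed to 61320 to 69050 CPM (scaled by total counts) in vehicle livers and 58750 to 63250 CPM in treated livers, which lay lower but overlapped. The part of this difference in the results below was not tested. Summed markers of bile duct (4.37 to 12.4), leukocyte (8.12 to 18.5), plasma cell (4.88 to 7.16) and pancreatic acinar cells (13.9 to 26.0) were low, and ranges of both groups overlapped for these lists as for those of Kupffer, endothelial, stellate and erythroid cells. None of the markers tested in the 9 lists had an adjusted P under 0.05 (edgeR). At most 3 counts per liver were found for *Tnfrsf17* of plasma cells and *Cpa1* of acinar cells, while *Cel* and *Amy2a5* were not analysed here. In bulk tissue, fewer cells of a type and less RNA per cell cannot be told apart.

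Promoters of several of these genes are known to carry short elements read by the branches above. From the promoter table of RefSeq (GRCm38.p6), which held all 10 genes, the 250 bases before the annotated start were searched on both strands for letters of known elements. These were the ER stress response element ERSE (CCAAT, 9 bases, then CCACG), to which ATF6 binds next to NF-Y, its relative ERSE-II (ATTGG, 1 base, then CCACG), the core of the UPRE bound by XBP1 (TGACGTG), the C/EBP-ATF response element CARE read by ATF4 (TGATGNAA) and the CRE (TGACGTCA). The 4 sequences below, shown 5′ to 3′ on the strand of the gene and ending at the base before the start, carry matches of the chaperone type (*Hspa5*, *Herpud1*) or of the ATF4 type (*Asns*, *Chac1*, *Herpud1*), and matched letters are in capitals.

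*Hspa5*, chr2:34771840-34772089, plus strand: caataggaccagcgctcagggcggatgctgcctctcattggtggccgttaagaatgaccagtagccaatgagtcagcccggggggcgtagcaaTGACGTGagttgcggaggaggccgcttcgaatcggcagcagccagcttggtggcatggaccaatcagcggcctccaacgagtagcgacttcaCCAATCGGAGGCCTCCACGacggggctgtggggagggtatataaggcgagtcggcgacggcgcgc

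*Herpud1*, chr8:94386179-94386428, plus strand: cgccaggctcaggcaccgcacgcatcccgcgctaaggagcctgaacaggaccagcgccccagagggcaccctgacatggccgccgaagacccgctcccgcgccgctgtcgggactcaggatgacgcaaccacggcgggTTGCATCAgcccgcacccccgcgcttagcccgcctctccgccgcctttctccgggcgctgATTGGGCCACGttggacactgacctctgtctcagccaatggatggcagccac

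*Asns*, chr6:7693210-7693459, minus strand: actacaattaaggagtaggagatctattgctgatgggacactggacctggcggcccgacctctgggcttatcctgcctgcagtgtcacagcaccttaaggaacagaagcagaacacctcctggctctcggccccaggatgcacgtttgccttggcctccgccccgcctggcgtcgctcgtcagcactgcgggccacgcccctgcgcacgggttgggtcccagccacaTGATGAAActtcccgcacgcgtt

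*Chac1*, chr2:119350992-119351241, plus strand: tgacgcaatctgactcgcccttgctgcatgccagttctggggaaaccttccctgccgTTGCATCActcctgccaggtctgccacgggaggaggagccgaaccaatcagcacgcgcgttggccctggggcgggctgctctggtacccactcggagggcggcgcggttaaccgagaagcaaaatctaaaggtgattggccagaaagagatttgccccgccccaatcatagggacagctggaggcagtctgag

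In *Hspa5* the capitals mark TGACGTG, 157 to 151 bases before the start, and an ERSE, 65 to 47 bases before it. *Herpud1* held a CARE match on the opposite strand (112 to 105 bases before the start) and an ERSE-II (52 to 42). The CARE match of *Asns*, TGATGAAA, lay 23 to 16 bases before the start, and that of *Chac1*, TTGCATCA on the strand shown, lay 193 to 186 bases before it. *Atf3* held the same TTGCATCA at 110 to 103 bases. CARE letters were thus found in 4 of the 10 genes and in 3.45% of 32851 promoters in the table, ERSE in 1 gene and in 0.113%, ERSE-II in 1 gene and in 0.0304%, TGACGTG in 1 gene and in 1.65%, and the CRE in 0 of the genes and in 1.55%. A match describes letters in this window and is not a measured binding site. Elements that cross the start could not be counted. The *Herpud1* window ends in CCAAT, 9 bases and CCAC, which is an ERSE short of its last letter.

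After treatment with MI-883, *Asns* was the only gene among the 10 to pass the threshold. It rose, while *Hspa5*, *Herpud1*, *Xbp1*, *Atf4* and *Ddit3* had changes close to 0. *Dnajb9* and *Atf3* were somewhat higher on average and *Chac1* lower, without passing the threshold. With 1 of 10 genes called (edgeR quasi-likelihood test, Benjamini-Hochberg adjusted over 13219 genes, threshold 0.05) the set is read against a background of 1.03% of all tested genes called, and 0.764% called upward. At an unadjusted P under 0.05 there were 3 of the 10 genes (*Asns*, *Dnajb9* and *Chac1*), against 15.6% of tested genes. In 0 of the 10 genes were vehicle and treated livers fully apart, which was the case for 3.98% of tested genes. The median log2 fold change of the 10 genes was 0.056, beside 0.0045 over all tested genes.

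**Figure D1:**
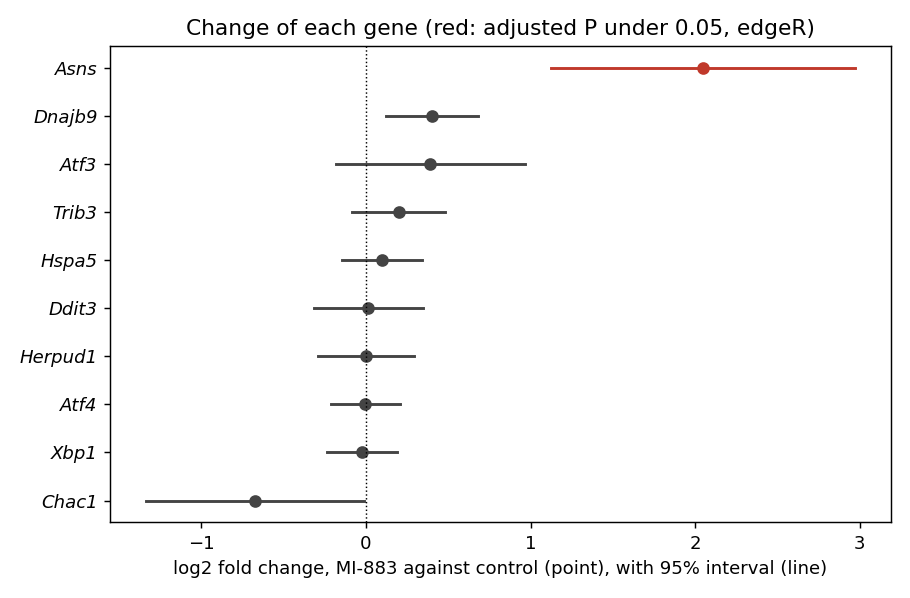
Log2 fold change of MI-883-treated against vehicle livers (horizontal axis) for the 10 genes (vertical axis), with points for estimates of edgeR and lines for 95% intervals, 5 livers per group. *Asns*, in red, is the only gene with an adjusted P under 0.05, and intervals of 7 genes span 0.

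*Asns* encodes asparagine synthetase, which makes asparagine from aspartate and glutamine and is a classic target of ATF4 (Entrez gene 27053, chromosome 6, 7675165 to 7693209). Vehicle livers 1 to 5 stood at 0.754, 0.625, 1.23, 0.695 and 1.23 CPM. Treated livers 1 to 5 stood at 1.09, 5.80, 2.37, 2.83 and 6.38 CPM. Treated livers 2 to 5 lay above every vehicle liver, while treated liver 1 lay within their range, so that the groups overlapped by this liver. Means were 0.906 ± 0.297 (SD, n = 5) and 3.69 ± 2.29 CPM, which edgeR put at 4.14-fold, or 2.05 ± 0.427 (SE, standard error) in log2 with a 95% interval of 1.13 to 2.97 and an adjusted P of 0.0396. The exact two-sided permutation test over livers gave P = 0.0238, where 0.00794 is the least it can give.

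These levels rest on 20 to 32 reads in the vehicle livers and treated liver 1, and on 64 to 180 reads in the other 4 livers. The SD of treated livers was large beside their mean, as livers 2 and 5 were more than 2-fold above livers 3 and 4. The Wald test of DESeq2 gave an adjusted P of 9.1e-05 for *Asns*. With 1 liver left out at a time, the log2 fold change stayed between 1.75 and 2.29, but the adjusted P (edgeR) remained under 0.05 in only 2 of the 10 fits, those without treated liver 1 (0.00554) or treated liver 3 (0.0495). Without any of vehicle livers 1 to 5 or treated livers 2, 4 and 5 it lay between 0.0539 and 0.115.

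**Figure D2:**
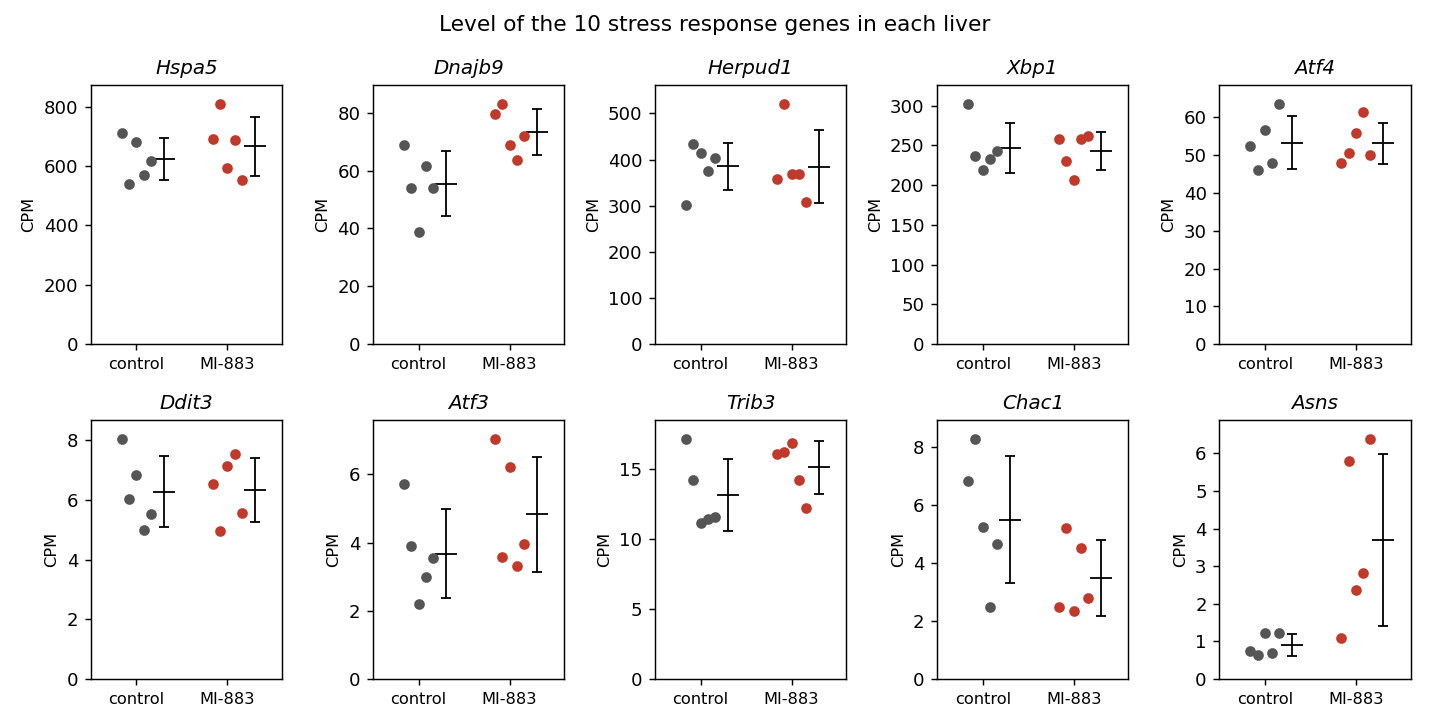
CPM of each gene (vertical axes, from 0, with a scale of its own per panel) in 5 vehicle (control, grey) and 5 MI-883-treated livers (red), in order of replicate number, with mean and SD in black. For *Asns* 4 treated livers lie above all vehicle livers, and in every panel at least 1 treated liver lies within the range of the vehicle livers.

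The other genes of the panel downstream of ATF4 did not pass the threshold. *Chac1*, whose product degrades the antioxidant glutathione and which is raised through ATF4 and CHOP (Entrez gene 69065, chromosome 2, 119351242 to 119354326), stood at 6.84, 8.28, 5.23, 2.49 and 4.65 CPM in vehicle livers 1 to 5 and at 2.50, 5.22, 2.33, 4.53 and 2.80 CPM in treated livers. All 5 treated livers lay below the vehicle median of 5.23 CPM, but vehicle liver 4 was among the lowest of all. Its estimate was -0.68 ± 0.307 in log2 (SE, 95% interval -1.34 to -0.013), at adjusted P values of 0.313 in edgeR and 0.238 in DESeq2. *Asns* and *Chac1*, which both carry CARE letters, had estimates of opposite sign, of which only that of *Asns* passed. Whether these letters have a part in either estimate was not tested.

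*Trib3* encodes a pseudokinase that ATF4 and CHOP raise and that restrains ATF4 in turn (Entrez gene 228775, chromosome 2, 152337425 to 152344060). Vehicle livers stood at 17.1, 14.2, 11.1, 11.4 and 11.6 CPM and treated livers at 16.1, 16.2, 16.8, 14.2 and 12.2 CPM. All treated livers lay above the vehicle median of 11.6 CPM, yet vehicle liver 1 was the highest of the 10. In log2 the change was 0.20 (95% interval -0.083 to 0.48, adjusted P = 0.484 from edgeR).

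Among the transcription factors of the integrated stress response, *Atf4* itself (Entrez gene 11911, chromosome 15, 80255184 to 80257545) was measured at 46.2 to 63.5 CPM in vehicle livers (median 52.5) and 47.9 to 61.4 CPM in treated livers (median 50.5). Treated livers lay wholly within the range of vehicle livers. The estimate in log2 was -0.005 with an SE of 0.0971, and its 95% interval, from -0.21 to 0.20, corresponds to 0.862-fold to 1.15-fold. The sign of so small a value turned to positive with scaling by total counts.

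*Ddit3*, which encodes CHOP, the factor tied to cell death under lasting ER stress (Entrez gene 13198, chromosome 10, 127290793 to 127296291), stood at 8.05, 6.03, 6.83, 4.98 and 5.53 CPM in vehicle and 6.53, 4.96, 7.14, 7.53 and 5.57 CPM in treated livers. Livers of both groups were interleaved. The estimate was 0.013 ± 0.153 in log2 (SE, 95% interval 0.802-fold to 1.27-fold, edgeR adjusted P = 0.979), at 112 to 288 reads per liver. Of its exonic bases 10.9% also lie in exons of other annotated entries. These are another entry named *Ddit3* on the same strand, and *Gm4189* and *Mars* (also named *Mars1*) on the opposite strand. The share of each was not separated, and the strand setting of the counting is not given in the sources used here.

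*Atf3*, an early stress factor that responds to ATF4 and to inflammatory signals (Entrez gene 11910, chromosome 1, 191170296 to 191183333), stood at 5.73, 3.91, 2.21, 2.98 and 3.55 CPM in vehicle livers. Treated livers stood at 7.04, 3.58, 6.22, 3.31 and 3.97 CPM. Treated livers 1 and 3 were the highest of all, whereas the other 3 lay within the vehicle range. The log2 estimate of 0.39 had a 95% interval of -0.19 to 0.96 (adjusted P = 0.506 from edgeR), which leaves room for no change and for nearly 2-fold (1.95).

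Among genes of the ER itself, *Hspa5* encodes BiP, the main chaperone of the ER lumen, which holds the sensors inactive until unfolded protein draws it away (Entrez gene 14828, chromosome 2, 34772090 to 34776529). Vehicle livers stood at 709.5, 539.4, 680.7, 569.2 and 617.3 CPM and treated livers at 691.3, 808.2, 593.5, 688.2 and 553.5 CPM. Treated liver 2 was above every vehicle liver and the other 4 lay among them. On average treated livers were 0.098 ± 0.113 higher in log2 (SE, 95% interval 0.904-fold to 1.27-fold, edgeR adjusted P = 0.705).

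*Dnajb9* encodes ERdj4, a co-chaperone of BiP that represses IRE1 and is itself a target of spliced XBP1 (Entrez gene 27362, chromosome 12, 44205897 to 44210068). It stood at 68.8, 54.1, 38.8, 61.7 and 53.9 CPM in vehicle and 79.7, 82.9, 68.7, 63.6 and 72.0 CPM in treated livers. All treated livers lay above the vehicle median of 54.1 CPM and 3 above every vehicle liver, vehicle liver 1 being the one that kept the groups from parting. Means were 55.5 ± 11.2 and 73.4 ± 7.92 CPM (SD, n = 5). In log2 this was 0.40 ± 0.129 (SE, 95% interval 0.12 to 0.68), with an unadjusted P of 0.00837 and an adjusted P of 0.168 (edgeR). DESeq2 gave an adjusted P of 0.0765, and the exact two-sided permutation test P = 0.0238. *Dnajb9* therefore did not pass over all genes, and in no fit that left out a liver did its adjusted P go under 0.05 (0.0716 to 0.297, edgeR).

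*Herpud1* encodes an ER membrane protein of ER-associated degradation, by which misfolded protein is sent to the proteasome (Entrez gene 64209, chromosome 8, 94386429 to 94395371). Vehicle livers ranged from 301.5 to 433.9 CPM (median 402.4) and treated livers from 307.7 to 520.0 CPM (median 369.2). Treated liver 2 was the highest and vehicle liver 1 the lowest. Its change in log2 was -0.001 ± 0.135 (SE, 95% interval 0.816-fold to 1.22-fold), and its sign turned with scaling by total counts and with stricter filters on low counts.

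*Xbp1* encodes the factor that is active after splicing by IRE1 (Entrez gene 22433, chromosome 11, 5520641 to 5525993). It ranged from 219.6 to 302.0 CPM in vehicle (median 236.6) and from 206.0 to 261.8 CPM in treated livers (median 257.8). Treated and vehicle livers differed by -0.024 ± 0.0980 in log2 (SE, 95% interval 0.850-fold to 1.14-fold, edgeR adjusted P = 0.930), and its sign turned with scaling by total counts. The counts join spliced and unspliced *Xbp1*. For *Hspa5*, *Herpud1*, *Xbp1*, *Atf4* and *Ddit3* no 95% interval reached above 1.27-fold or below 0.802-fold.

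Livers differed in these genes within each group. Vehicle liver 1 was the highest of the vehicle livers in 6 of the 10 genes (*Hspa5*, *Xbp1*, *Dnajb9*, *Ddit3*, *Atf3* and *Trib3*) and the lowest in *Herpud1*. Treated liver 2 was the highest treated liver in 4 genes, *Hspa5*, *Dnajb9*, *Herpud1* and *Chac1*. The order of treated livers for *Asns*, with livers 5 and 2 on top and liver 1 at the bottom, was not that of *Atf3*, where livers 1 and 3 were on top, nor that of *Trib3*, where liver 3 was the highest and liver 5 the lowest.

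**Figure D3:**
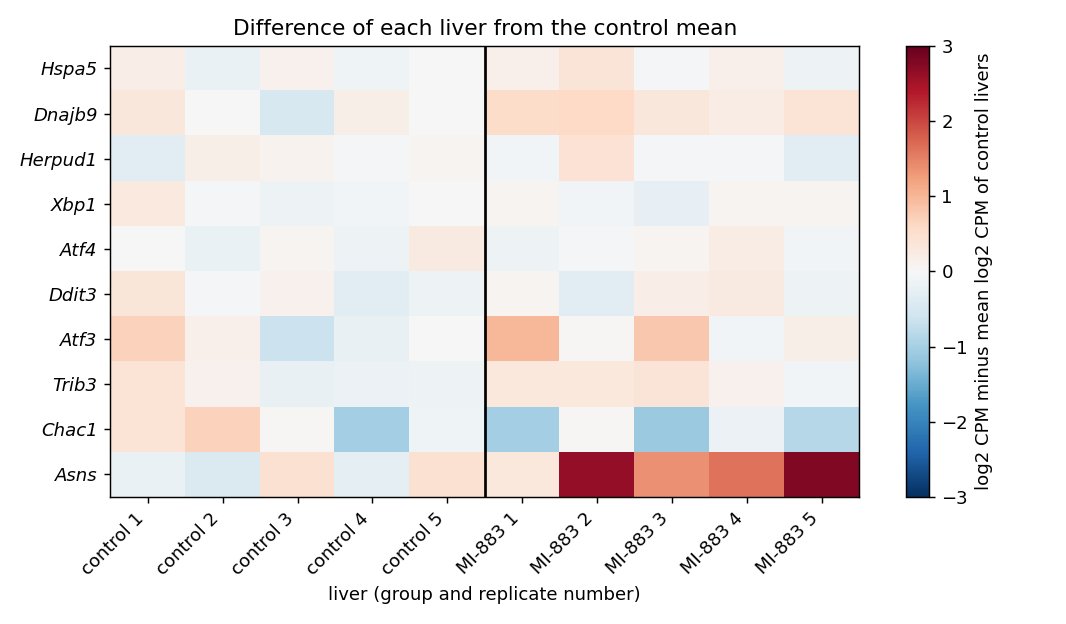
Log2 CPM of each gene (rows) in each liver (columns) minus the mean of the 5 vehicle livers, with red above and blue below that mean. *Asns* is deepest red in treated livers 5 (2.78) and 2 (2.64), followed by livers 4 (1.62) and 3 (1.37), and *Chac1* is blue in treated livers 1 (-1.01), 3 (-1.11) and 5 (-0.85) and in vehicle liver 4 (-1.01).

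Levels can be compared between genes only per length of transcript. Per kilobase of annotated exon, vehicle livers held a mean of 165 CPM of *Herpud1*, 147 of *Hspa5*, 76.0 of *Xbp1*, 22.6 of *Atf4*, 21.8 of *Dnajb9*, 6.16 of *Trib3*, 3.67 of *Ddit3*, 3.36 of *Chac1*, 1.71 of *Atf3* and 0.331 of *Asns*. Livers overlapped between *Herpud1* and *Hspa5*, between *Atf4* and *Dnajb9*, and along *Ddit3*, *Chac1* and *Atf3*, so that these neighbours are not ordered beyond their spread. *Asns* lay below *Atf3* in every vehicle liver. In treated livers it remained last at a mean of 1.35 CPM per kilobase, but its range of 0.400 to 2.33 then overlapped with that of *Chac1* (1.43 to 3.19).

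The wider pathway was taken as 8 lists of 128 known genes, which include the 10 genes above. Of the 118 others, 116 were tested, and *Slc7a11* and *Stc2* were below the filter. Outside the 10 genes, edgeR called 0 of 116 (1.03% of all tested genes) and DESeq2 called 3, *Pdia4*, *P4hb* and *Hspa1a*, all higher (3.50% of all tested genes). At an unadjusted P under 0.05 in edgeR there were 15 higher and 5 lower, where 15.6% of all tested genes were found, 1069 higher and 990 lower. Estimates were above 0 in 72 and below in 44 of the 116 genes, and in 6744 and 6475 of all tested genes. Groups were fully apart in 2, *Pdia4* and *Pck2*, against 3.98% of all tested genes. The median log2 fold change of the 116 genes was 0.042, beside 0.0045 over all tested genes. In the counts by list that follow, the 10 genes are included, and these shares over all tested genes are the background.

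Of 18 ER chaperones and folding enzymes, 13 had estimates above 0 and 5 below, around a median log2 change of 0.11 and in a range from -0.13 to 0.40. None passed in edgeR, 4 were higher at an unadjusted P under 0.05 (15.6% of all tested genes in either direction), and 2 were called by DESeq2 (3.50% of all tested genes). *Pdia4*, a protein disulfide isomerase, stood at 178.1, 145.0, 172.7, 151.4 and 167.4 CPM in vehicle and at 189.1, 210.2, 188.2, 205.2 and 181.0 CPM in treated livers. Every treated liver lay above every vehicle liver, at a difference of 0.26 ± 0.0761 in log2 (SE), yet its adjusted P was 0.142 in edgeR and 0.0346 in DESeq2. *P4hb*, another disulfide isomerase, named here after its values were seen, was higher by 0.24 in log2, with an adjusted P of 0.187 in edgeR and 0.0468 in DESeq2. For *Hyou1*, an ER chaperone of the HSP70 type, the log2 fold change was 0.26 (adjusted P = 0.364 from edgeR).

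Of 15 genes of ER-associated degradation, 13 had estimates above 0 and 2 below (median 0.083). None passed in edgeR or DESeq2, and 4 were higher and 1 lower at an unadjusted P under 0.05, beside 1069 higher and 990 lower of 13219 tested genes. *Derl3*, a channel component of this pathway that is abundant in plasma cells, was low at 1.63 to 3.43 CPM in vehicle and 2.94 to 4.29 CPM in treated livers (log2 fold change 0.57, adjusted P = 0.213 from edgeR). *Syvn1*, the ubiquitin ligase HRD1, had a log2 fold change of 0.27 (adjusted P = 0.235 from edgeR).

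Of 12 sensors and transducers, 9 had estimates above 0 (median 0.062) and none passed in either tool, with 1 higher and 1 lower at an unadjusted P under 0.05. *Wfs1*, an ER membrane protein whose loss causes Wolfram syndrome, averaged 10.1 ± 2.23 and 13.7 ± 1.42 CPM (SD, n = 5 each), a log2 fold change of 0.45 (adjusted P = 0.155 from edgeR). With a liver left out, its adjusted P (edgeR) ranged from 0.0286 to 0.311. It was under 0.05 in only 1 of 10 fits, that without vehicle liver 1, the highest vehicle liver for *Wfs1*. *Ern1*, which encodes IRE1alpha, had a log2 fold change of 0.38 (95% interval -0.014 to 0.78, adjusted P = 0.338 from edgeR).

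The 16 kinases and phosphatases of eIF2alpha and factors of the integrated stress response centred on a median log2 change of 0.009, with none past the threshold in edgeR or DESeq2 and none even at an unadjusted P under 0.05. *Eif2ak3*, which encodes PERK, had a log2 fold change of 0.28 (adjusted P = 0.348 from edgeR) and *Cebpb* one of -0.26 (adjusted P = 0.518 from edgeR).

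Of 22 tested ATF4 targets of amino acid supply and stress, 14 had estimates above 0 and 8 below (median 0.15), and *Asns* passed alone. At an unadjusted P under 0.05 there were 4 higher (*Asns*, *Psat1*, *Mthfd2* and *Pck2*) and 1 lower (*Chac1*). *Psat1*, an enzyme of serine synthesis, stood at 1.51, 0.844, 0.572, 0.434 and 0.439 CPM in vehicle and at 2.05, 2.79, 2.59, 0.914 and 0.816 CPM in treated livers. The estimate was 1.23 ± 0.425 in log2 (SE, edgeR adjusted P = 0.187), at 10 to 70 reads per liver. *Psat1* was low in treated liver 5, where *Asns* was at its highest, but highest in treated liver 2, where *Asns* was also high (5.80 CPM). *Mthfd2*, an enzyme of mitochondrial folate metabolism, was estimated at 0.71 ± 0.310 in log2 (SE, edgeR adjusted P = 0.291), and the secreted stress signals *Gdf15* and *Fgf21*, named here after their values were seen, had log2 fold changes of 0.57 and -0.32 (adjusted P = 0.361 and 0.521 from edgeR). Without vehicle liver 4, *Gdf15* passed at a log2 fold change of 0.99 (adjusted P = 0.0301, edgeR). It passed in no other setting, and DESeq2 gave an adjusted P of 0.442 over all livers.

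The 20 cytosolic aminoacyl-tRNA synthetases, several of which ATF4 is known to raise together with *Asns*, centred on a median log2 change of -0.003 within a range of -0.16 to 0.23. None passed in either tool, and 1 was higher (*Iars*, log2 fold change 0.23, adjusted P = 0.237 from edgeR) and 1 lower (*Eprs*, -0.16, adjusted P = 0.307 from edgeR) at an unadjusted P under 0.05.

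**Figure D4:**
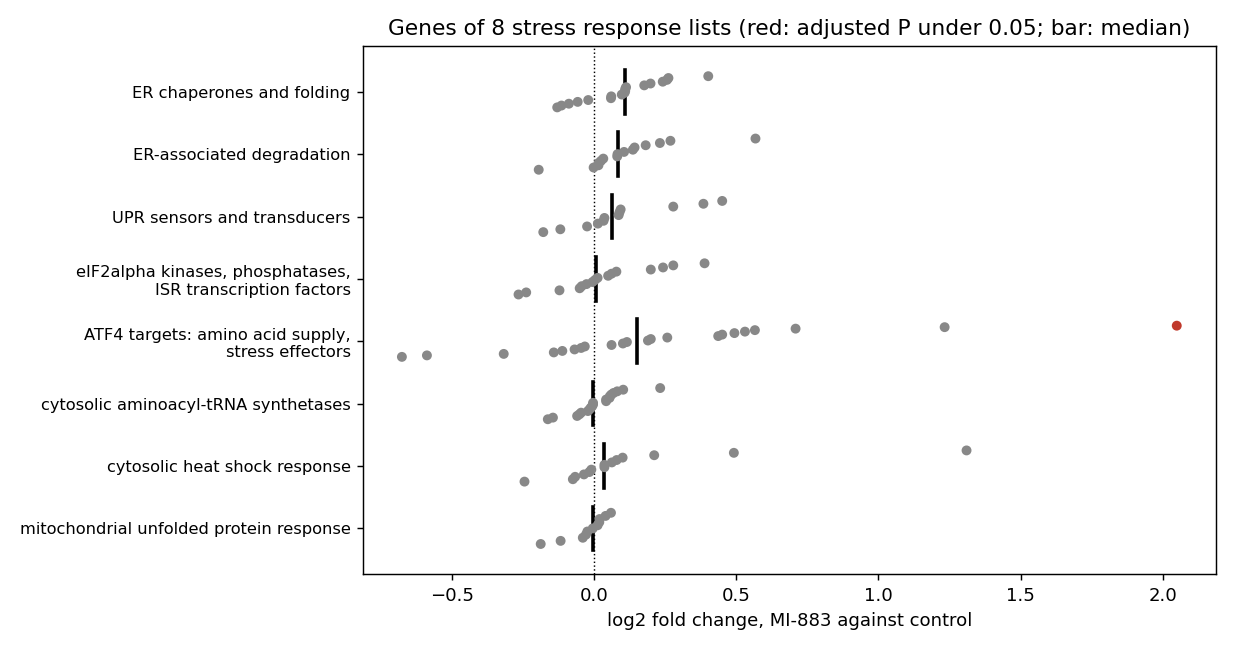
Log2 fold change of MI-883-treated against vehicle livers (horizontal axis) for the tested genes of 8 lists (rows), with genes of an adjusted P under 0.05 (edgeR) in red. Each list shows 1 point per gene and a black bar at its median. *Trib3* and *Eif2ak3* are in more than 1 list and appear in each. *Asns*, at 2.05 among the ATF4 targets, is the only red point, and medians lie between -0.004 and 0.15.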

How the data were processed

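RNA of 10 livers was sequenced on a NovaSeq6000 as pairs of reads of 150 bases from a directional library kit. The authors aligned reads to mm10 with STAR and counted them per gene with featureCounts, and fastp 0.23.0 is listed in the submitters' processing notes. The strand setting and the gene annotation are not given in the sources used here. The deposited values are unnormalised counts, with genes given as Entrez numbers. Of 16647 genes, 16644 were matched to RefSeq (GRCm38.p6) for symbols and positions and 3 were not.

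Groups and replicate numbers came from the labels. A gene was kept if its counts in all livers added up to 60 or more (13219), since the filter of the study, read as 60 counts in every sample, would leave 9959 and drop *Asns* and *Atf3*. Counts were compared with edgeR 4.0.16 (R 4.3.3, TMM, quasi-likelihood F test, condition as sole term) with Benjamini-Hochberg adjustment over all tested genes. Standard errors are the log2 fold change divided by the root of F, and 95% intervals use the degrees of freedom of the fit. Single genes were also compared by exact permutation over the 252 splits of mean log2 CPM (prior count 2). The code was tested on simulated data. Alternatives were DESeq2 1.42.0 (Wald test), other scalings and filters, a block for replicate number, 1 sva surrogate (sva 3.50.0) and leaving out each liver. The 10 genes and the lists were chosen with earlier results of these data known. Named beside the 10 genes are, per list, those with an adjusted P under 0.05 and the other 2 with the largest change at a mean of at least 1 CPM. Exon lengths and overlaps came from GENCODE M21. Of the 10 genes, 100-base stretches shared with transcripts of other annotated genes made up at most 1.26% (*Dnajb9*).

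Replicate numbers are shared between groups in the labels. Deviations from group means correlated over 0.1 in 1 of the 5 same-numbered pairs, so the numbers were not taken to pair livers.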

Additional observations from a re-analysis of the deposited data

Results flagged for a closer look

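Within each group of 5 livers, a liver was listed when the distance to its closest neighbour exceeded 0.71 of the range of the group (Dixon's 95% critical value). This was found in 2 of 52 groups of the 26 genes looked at, where chance gives about 1 in 20 groups, or 2.6. *Xbp1* was at 302 CPM in vehicle liver 1, with the nearest vehicle liver at 242.9 CPM. *Mthfd2* was at 2.81 CPM (76 reads) in treated liver 3, with the nearest treated liver at 1.504 CPM.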

How the results depend on the processing

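Over all tested genes, 136 had an adjusted P under 0.05 in edgeR, against 463 with DESeq2, 423 with 1 surrogate variable, 89 with the replicate block and 62 to 203 with a liver left out. Among the 10 genes the count of 1 (*Asns*) became 0 with at least 60 counts in every sample, which *Asns* could not pass, 0 with the replicate block (log2 fold change 1.85, adjusted P = 0.0545) and 0 to 1 with a liver left out. In the other 6 settings, DESeq2 among them, the adjusted P of *Asns* lay between 9.1e-05 and 0.0389. Over the 8 lists the count of 1 became 4 with DESeq2, 0 with at least 60 counts in every sample, 0 with the replicate block and 0 to 1 with a liver left out, the gene called in edgeR being *Wfs1* without vehicle liver 1 (adjusted P = 0.0286), *Gdf15* without vehicle liver 4 (0.0301) and *Asns* without treated liver 1 or 3. The count of genes whose groups do not overlap, 0, became 0 to 1 with a liver left out, as *Dnajb9* or *Asns* then parted.

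Signs turned only for 4 genes with log2 fold changes within 0.03 of 0. *Atf4* went to 0.040 with total counts and 0.012 with 60 counts in every sample, *Xbp1* to 0.013 with total counts, and *Herpud1* to 0.040 with total counts, 0.016 with 60 counts in every sample and 0.0013 with filterByExpr. With a liver left out, *Ddit3* ranged from -0.062 to 0.12, *Atf4* from -0.063 to 0.064, *Xbp1* from -0.063 to 0.059 and *Herpud1* from -0.13 to 0.070. Scaling by total counts moved the median of all genes from 0.0045 to 0.049. The cause of these differences was not tested. *Asns*, *Psat1* and *Mthfd2* rest on 10 to 180 reads per liver. The p-values of edgeR set the difference between groups against the variation within groups. That variation holds both differences between animals and counting noise, and its estimate draws on all tested genes. For *Asns*, treated livers spread widely, at 3.69 ± 2.29 CPM (SD, n = 5) on 32 to 180 reads. The parts of depth and of differences between animals in this spread were not tested.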

Other observations

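Of the 8 lists, a pair covers protein quality control outside the ER. Of 14 genes of the cytosolic heat shock response, 8 had estimates above 0 and 6 below, with a median log2 fold change of 0.037. None passed in edgeR, 3 were higher and 1 lower at an unadjusted P under 0.05, and 1 was called by DESeq2. This was *Hspa1a*, a stress-inducible HSP70 named here after its values were seen, which stood at 0.391, 0.500, 0.286, 0.116 and 0.395 CPM in vehicle and at 1.03, 1.11, 0.999, 0.609 and 0.461 CPM in treated livers, on 4 to 30 reads per liver (log2 fold change 1.31, adjusted P = 0.129 from edgeR and 0.0452 from DESeq2). All treated livers lay above every vehicle liver other than liver 2, whose 0.500 CPM exceeded treated liver 5. Its near copy *Hspa1b*, between which reads can be hard to assign, had a log2 fold change of 0.49 (adjusted P = 0.252 from edgeR), and *Hspb8*, a small heat shock protein, one of -0.24 (adjusted P = 0.289 from edgeR).

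Of 11 genes of the mitochondrial unfolded protein response, 5 had estimates above 0 and 6 below (median -0.004). None passed in edgeR or DESeq2, and *Clpx*, a subunit of a mitochondrial protease, was lower at an unadjusted P of 0.0186 (log2 fold change -0.19, adjusted P = 0.222 from edgeR). *Hspe1*, a mitochondrial chaperonin, had a log2 fold change of -0.12 (adjusted P = 0.627 from edgeR).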
